A study of Homo sapiens with 6 samples.

Results

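A set of 10 tubulin genes was followed in HCT116, a human colorectal cancer cell line, by matching their symbols to the deposited expression values. The set held 4 alpha-tubulin genes (TUBA1A, TUBA1B, TUBA1C and TUBA4A), 5 beta-tubulin genes (TUBB, TUBB2A, TUBB3, TUBB4B and TUBB6) and TUBG1, which encodes gamma-tubulin and therefore lies outside the alpha and beta classes. All 10 were found among 26255 gene symbols, and all 10 were among the 12203 genes with a mean FPKM (fragments per kilobase of exon, scaled to the size of the library) of at least 1 that were tested. The values came from 6 poly(A)-selected RNA-seq libraries in 3 groups of 2. The parent group was HCT116 not described as transfected, while the other groups were HCT116 given siLINC01534-1 or siLINC01534-2, siRNAs against the long noncoding RNA LINC01534, which the methods deliver with Lipofectamine RNAiMax. None of the 6 libraries is labelled as given a negative control siRNA, so transfection and silencing cannot be told apart in any comparison with parent. No time after transfection is given for these libraries. The labels give 2 samples per group and the methods speak of triplicate cultures, and nothing in the labels ties a library to its own culture, so the p-values measure only the spread between these libraries, which may be technical.

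Alpha- and beta-tubulin join in heterodimers that polymerise into microtubules, the filaments of the mitotic spindle and of intracellular transport. Each is encoded by several genes, whose products are called isotypes and are used in different proportions by different tissues. Gamma-tubulin does not enter the filament wall but, in a ring complex with other proteins, starts new microtubules at the centrosome. Cells also adjust tubulin mRNA to the amount of free tubulin, since an excess of unpolymerised dimers sets off decay of tubulin mRNAs on the ribosome. TUBB3 is best known from neurons, and TUBB4B is a broadly made isotype that is also abundant in cilia.

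The targeted RNA gave almost no signal with which to check the labels. LINC01534 had 0.285 and 0.571 FPKM in parent, was listed at 0 and had 0.283 FPKM under siLINC01534-1, and had 0.660 and 0.551 FPKM under siLINC01534-2. Once scaled by the estimated depth, these values stood at 1, 2, 0, 1, 1.99 and 2.01 times the smallest one, a pattern that single reads give. So few reads cannot check the labels, and LINC01534 was no lower under siLINC01534-2 than in parent. The directions given for siLINC01534-1 and siLINC01534-2 below are those of the libraries so labelled. The depth, estimated from the steps between low values, was 8640000 to 10440000 reads per library. By the same estimate the least covered tubulin gene, TUBA1A, had 216 to 329 reads and TUBB 18122 to 27170. If every such read was particular to its gene, counting alone gave an error of at most 6.81% in any library. That figure, for any of the 10 genes, leaves out the reads shared between genes, described below. The epithelial markers EPCAM, KRT8, KRT18, KRT19, CDH1 and CDX2 were present in every library, EPCAM at 199 to 204 FPKM, whereas VIL1 was listed at 0 in all but one library, where it had 0.0453 FPKM. Of the neuronal markers, RBFOX3, SNAP25, NEFL and STMN2 had at most 0.403 FPKM, and SYT1 had 13.9 to 20.5 FPKM. PTPRC of leukocytes and PECAM1 of endothelium had at most 0.0463 FPKM, and COL1A1, a collagen gene of fibroblasts, had 3.02 to 5.79 FPKM.

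Promoter windows are shown because TUBA1B, TUBA1C, TUBB and TUBB4B carry most of the tubulin mRNA of these cells and fell with each siRNA. Each window is the 250 bases upstream of the start of the canonical GENCODE transcript, read from GRCh37 (hg19), 5′ to 3′ on the strand of the gene. Capitals mark CCAAT or its reverse complement ATTGG, the box bound by NF-Y, and TTTGAA or its reverse complement TTCAAA, the core of the cell cycle genes homology region found in many genes of late cell cycle stages. The TUBB4B window is chr9:140135489-140135738 (plus strand), that of TUBA1C chr12:49658615-49658864 (plus strand), that of TUBB chr6:30687879-30688128 (plus strand) and that of TUBA1B chr12:49525179-49525428 (minus strand). The windows of TUBA1C and TUBB lie inside the annotated gene, since longer transcripts of both begin further upstream.
TUBB4B: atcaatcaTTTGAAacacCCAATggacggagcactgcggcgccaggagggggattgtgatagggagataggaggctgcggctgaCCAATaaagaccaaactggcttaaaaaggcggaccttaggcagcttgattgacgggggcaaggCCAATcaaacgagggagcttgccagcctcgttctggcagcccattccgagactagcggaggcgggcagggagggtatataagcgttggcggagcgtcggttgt
TUBA1C: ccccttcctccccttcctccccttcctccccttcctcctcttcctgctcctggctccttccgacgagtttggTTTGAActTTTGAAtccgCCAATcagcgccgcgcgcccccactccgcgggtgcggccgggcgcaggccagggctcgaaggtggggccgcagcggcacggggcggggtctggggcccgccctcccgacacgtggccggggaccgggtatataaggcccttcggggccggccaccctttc
TUBB: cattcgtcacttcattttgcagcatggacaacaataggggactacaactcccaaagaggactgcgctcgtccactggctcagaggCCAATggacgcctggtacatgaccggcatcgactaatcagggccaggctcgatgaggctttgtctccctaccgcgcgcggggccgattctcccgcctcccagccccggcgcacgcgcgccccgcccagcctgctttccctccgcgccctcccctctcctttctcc
TUBA1B: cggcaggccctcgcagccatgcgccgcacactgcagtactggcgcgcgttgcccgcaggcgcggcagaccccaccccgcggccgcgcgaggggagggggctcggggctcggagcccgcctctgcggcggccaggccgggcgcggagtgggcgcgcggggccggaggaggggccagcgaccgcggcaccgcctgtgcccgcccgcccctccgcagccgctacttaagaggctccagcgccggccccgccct
TUBB4B held CCAAT in 3 copies, with their first bases 232, 166 and 103 bases before the start, and TTTGAA in 1 copy. Among the promoters of 10554 tested genes, 34.57% held CCAAT on either strand at least once and 4.59% held 3 or more copies. TUBA1C held TTTGAA in 2 copies beside 1 CCAAT, TUBB held 1 CCAAT, and TUBA1B held neither motif in this window. TTTGAA was found in 7.16% of all promoters, and both motifs together in 3.11%. Of the 10 tubulin genes, 7 held CCAAT, and TUBB4B and TUBA1C were the 2 that held TTTGAA. The GC box, GGGCGG or its reverse complement CCGCCC, stood in 8 of the 10 windows and in 74.61% of all promoters, and TATAAA or TTTATA in TUBB2A alone and in 4.4% of all promoters. CCAAT and TTTGAA can share 1 base at their ends, and CCAAT and GGGCGG can share 2. These are matches of letters, and binding was not measured.

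The genes are spread over several chromosomes. TUBA1A (chr12:49578469-49582863, minus strand), TUBA1B (chr12:49521565-49525180, minus strand) and TUBA1C (chr12:49582519-49668383, plus strand) are neighbours, with the annotated ends of TUBA1A and TUBA1C overlapping on opposite strands. TUBA4A lies at chr2:220114432-220142624 (minus strand), TUBB at chr6:30685212-30693315 (plus strand) and TUBB2A at chr6:3153731-3157778 (minus strand). TUBB3 lies at chr16:89987800-90005169 (plus strand), TUBB4B at chr9:140135739-140138159 (plus strand), TUBB6 at chr18:12307668-12344319 (plus strand) and TUBG1 at chr17:40761659-40767256 (plus strand). The canonical transcripts of the alpha and beta genes all have 4 exons and that of TUBG1 has 11. The coding sequences of TUBA1A, TUBA1B and TUBA1C were identical at 95.9% to 97.2% of bases, those of TUBA4A and these 3 at 84.4% to 85.7%, and those of the beta genes at 80.9% to 87.8%. A 75-base read is therefore not always particular to one gene. Of the 75-base windows of the canonical transcript, 59.5% of TUBB2A, 48.4% of TUBA1B, 31.2% of TUBA1A, 20.4% of TUBG1 and 18.1% of TUBA1C occurred unchanged in another gene, against 8.97% of TUBB, 6.80% of TUBB3, 5.64% of TUBB4B, 3.19% of TUBA4A and none of TUBB6. How the authors' counting divided such reads is not given in the sources used here, so the levels of genes with a large shared part are uncertain. TUBA1A shared 407 windows with the far more abundant TUBA1B, while 864 of the 918 shared windows of TUBB2A were those of TUBB2B, whose highest value over the libraries was 1.06 FPKM.

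HCT116 cells used a few isotypes heavily. In parent, TUBB was highest at 1151 ± 22.1 FPKM (SD, n = 2), followed by TUBA1B at 874.4 ± 25.3, TUBB4B at 524 ± 14.7 and TUBA1C at 460 ± 7.58 FPKM. TUBB3 had 106 ± 1.87, TUBB6 74.6 ± 0.555, TUBG1 68.4 ± 1.59 and TUBA4A 53.4 ± 4.90 FPKM, and TUBB2A and TUBA1A had 19.6 ± 0.848 and 15.8 ± 1.85 FPKM. In parent no gene's pair of libraries overlapped that of its neighbour in this order. With siLINC01534-1 the pairs of TUBA1C and TUBB4B overlapped, as did those of TUBB2A and TUBA1A, and under siLINC01534-2 those of TUBA1A and TUBB2A. TUBG1 stood above TUBB6 under siLINC01534-1 and below it in the other groups. The plot of FPKM by library shows every siRNA library below both parent libraries in each of the 4 most abundant genes.

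**Figure D1:**
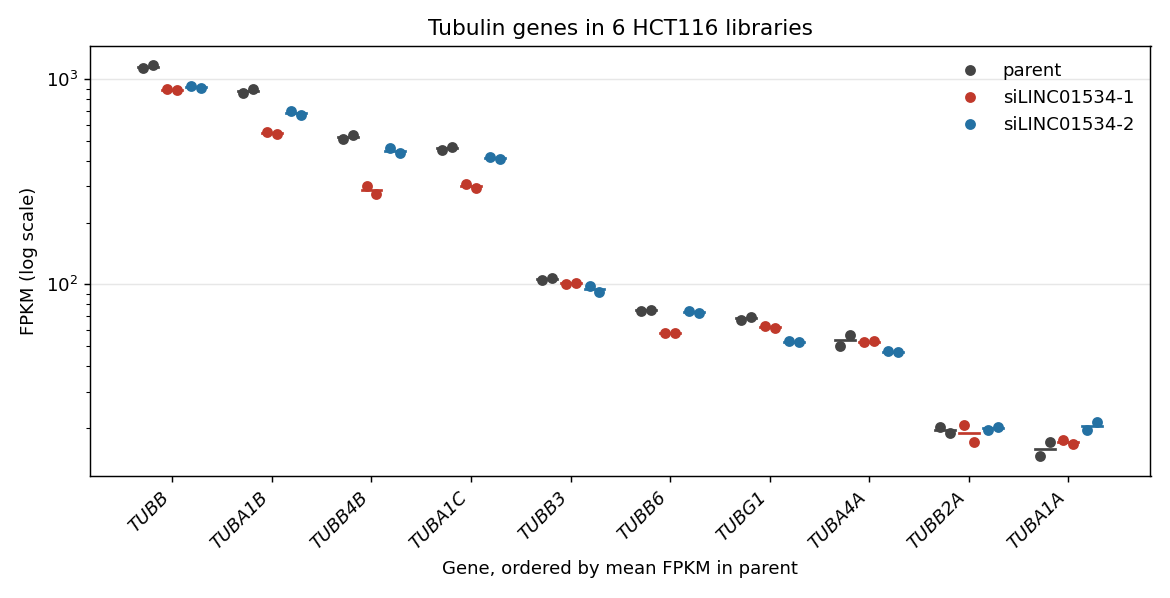
FPKM (log axis) of the 10 tubulin genes, ordered by their mean in parent, with 1 point per library and a short line at the mean of each pair, coloured by group. TUBB, TUBA1B, TUBB4B and TUBA1C lie above 277 FPKM in every library and the other 6 genes below 108 FPKM.

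Against parent, the abundant alpha and beta genes were lower with each siRNA, and no gene reached a 2-fold difference. The test was limma on log2(FPKM + 1), run across all 12203 genes, with the Benjamini-Hochberg adjusted p under 0.05 as the threshold, and log2 fold changes are on that scale. With siLINC01534-1, 6 of the 10 genes fell (TUBA1B, TUBA1C, TUBB, TUBB4B, TUBB6 and TUBG1) and none rose, where 24.5% of all tested genes were called lower and 21.8% higher. With siLINC01534-2, 6 fell (TUBA1B, TUBA1C, TUBB, TUBB3, TUBB4B and TUBG1) and TUBA1A rose, where 11.8% of all tested genes were called lower and 11.1% higher. For the mean of both siRNAs, the 6 genes that fell were those of siLINC01534-1 and none rose, beside 20.1% of all genes called lower and 17.1% higher. The median log2 fold change of the 10 genes was -0.25 under siLINC01534-1 and -0.17 under siLINC01534-2, and the medians of all tested genes were 0.0003 and 0.0018. In 6 genes all 4 siRNA libraries were below both parent libraries, and in none were all 4 above; 19.3% of all tested genes lay wholly below and 19.0% wholly above. By the ratio of mean FPKM of the 4 siRNA libraries to that of parent, 0 of the 10 genes passed 2-fold, beside 2.78% of all tested genes. Both comparisons share the parent libraries, so their counts are not independent. The tubulin genes were also chosen with earlier results of these data known. In bulk RNA, fewer cells with a given mRNA and less of that mRNA per cell cannot be told apart.

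Among the alpha genes, TUBA1B, the main alpha isotype here, had 856 and 892 FPKM in parent, 555 and 540 under siLINC01534-1 and 701 and 669 under siLINC01534-2. The 3 groups did not overlap, under siLINC01534-1 lowest. Its mean was 37.4% lower under siLINC01534-1 (log2 fold change -0.67, standard error 0.0406, adjusted p = 0.00021) and 21.7% lower under siLINC01534-2 (-0.35, adjusted p = 0.00506). TUBA1C, a close relative that is likewise expressed in dividing cells, had 454 and 465 FPKM in parent, 309 and 294 under siLINC01534-1 and 417 and 408 under siLINC01534-2. Again no pairs overlapped, but the pair of siLINC01534-2 lay much nearer to parent. The fall of TUBA1C was 34.4% under siLINC01534-1 (log2 fold change -0.61, adjusted p = 0.000239) and 10.3% under siLINC01534-2 (-0.16, adjusted p = 0.0388).

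TUBA1A, the alpha isotype most abundant in developing neurons, had 14.5 and 17.1 FPKM in parent, 17.4 and 16.7 under siLINC01534-1 and 19.5 and 21.4 under siLINC01534-2. The libraries of siLINC01534-1 overlapped parent and those of siLINC01534-2 were above it. TUBA1A rose under siLINC01534-2 (log2 fold change 0.35, standard error 0.0885, adjusted p = 0.0414), and its value under siLINC01534-1 was 0.11 (adjusted p = 0.37). One stretch of its 3′ UTR is shown because its capitals are the letters that pair with bases 2 to 8 of the antisense strand of siLINC01534-1, and they begin at base 188 of a 3′ UTR of 215 bases.
TUBA1A: gatgggttttGAATAAAgtattccctg
These letters contain the polyadenylation signal AATAAA and stand in 26.43% of the 3′ UTRs of 10540 tested genes. TUBA1A was the 1 tubulin gene that held them, and its libraries under siLINC01534-1 overlapped parent. Whether such matches had an effect was not tested. The corresponding letters for siLINC01534-2, TTCGAGT, were in 0 of the 10 genes and in 1.88% of the 3′ UTRs. TUBA4A, a more divergent alpha isotype prominent in platelets and muscle, had 49.96 and 56.9 FPKM in parent, 52.2 and 52.9 under siLINC01534-1 and 47.3 and 46.8 under siLINC01534-2. The pair of siLINC01534-1 lay between the parent libraries and that of siLINC01534-2 below both. Neither difference passed the threshold, at -0.02 (95% interval -0.18 to 0.14, adjusted p = 0.812) and -0.18 (-0.34 to -0.02, adjusted p = 0.106).

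Among the beta genes, TUBB, the most abundant tubulin mRNA in every library, had 1135 and 1167 FPKM in parent, 892 and 889 under siLINC01534-1 and 923 and 905 under siLINC01534-2. Every siRNA library was below both parent libraries, and the pairs of the siRNAs lay close together. TUBB fell by 22.7% under siLINC01534-1 (log2 fold change -0.37, standard error 0.0324, adjusted p = 0.000653) and by 20.6% under siLINC01534-2 (-0.33, adjusted p = 0.00331). TUBB4B had 514 and 534 FPKM in parent, 301 and 277 under siLINC01534-1 and 462 and 436 under siLINC01534-2. The pair of siLINC01534-1 stood far below the rest. TUBB4B fell by 44.8% under siLINC01534-1 (log2 fold change -0.86, standard error 0.0544, adjusted p = 0.000241) and by 14.3% under siLINC01534-2 (-0.22, adjusted p = 0.0385). Of the 10 genes it had the lowest ratio to parent under siLINC01534-1, at 0.552.

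TUBB6, a beta isotype of many non-neuronal cells, had 74.2 and 75.003 FPKM in parent, 58.2 and 57.8 under siLINC01534-1 and 74.4 and 72.2 under siLINC01534-2. The pair of siLINC01534-1 stood well below parent, and the pair of siLINC01534-2 overlapped it. TUBB6 fell under siLINC01534-1 (log2 fold change -0.36, adjusted p = 0.000821), and its value under siLINC01534-2 was -0.03 (95% interval -0.11 to 0.06, adjusted p = 0.627). TUBB3 had 105 and 108 FPKM in parent, 101 and 102 under siLINC01534-1 and 98.1 and 92.2 under siLINC01534-2. All 4 siRNA libraries were below parent by a small margin. TUBB3 fell under siLINC01534-2 (-0.16, standard error 0.0413, adjusted p = 0.0438), and its value under siLINC01534-1 was -0.07 (adjusted p = 0.219). TUBB2A, a close relative of the brain isotype TUBB2B, had 20.2 and 18.97 FPKM in parent, 20.7 and 17.0 under siLINC01534-1 and 19.5 and 20.3 under siLINC01534-2. Its groups overlapped, and for the mean of both siRNAs the log2 fold change was -0.02 (95% interval -0.22 to 0.19, adjusted p = 0.897).

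TUBG1, the main gamma-tubulin gene, had 67.3 and 69.5 FPKM in parent, 62.4 and 61.3 under siLINC01534-1 and 52.8 and 52.5 under siLINC01534-2. The 3 pairs did not overlap, and here the pair of siLINC01534-2 was lowest. TUBG1 fell under siLINC01534-1 (log2 fold change -0.14, standard error 0.0351, adjusted p = 0.0216) and under siLINC01534-2 (-0.37, adjusted p = 0.00301).

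The calls under siLINC01534-2 were the least firm. In the fit with a replicate block, adjusted p-values under siLINC01534-2 were 0.0501 for TUBA1A, 0.0738 for TUBA1C, 0.0827 for TUBB3 and 0.0605 for TUBB4B, and the same 4 calls were lost without the filter on low values and with eBayes without a trend. They were also lost when single libraries were left out. TUBB3 lost its call without any of the 6 libraries (adjusted p from 0.0519 to 0.167), TUBA1A without any but parent replicate 2 (0.0777 to 0.169), TUBA1C without any but siLINC01534-1 replicate 2 (0.0513 to 0.151), and TUBB4B without any parent or siLINC01534-2 library (0.0795 to 0.158). The calls of TUBA1B, TUBB and TUBG1 under siLINC01534-2 held in all those fits. TUBA4A passed under siLINC01534-2 (0.0412) and for both siRNAs (0.0392) without parent replicate 1. For both siRNAs, TUBA1A passed as higher without parent replicate 2 (0.0410) and TUBB3 as lower without siLINC01534-2 replicate 1 (0.0361). The call of TUBG1 under siLINC01534-1 was lost with eBayes without a trend (adjusted p = 0.0509), and without parent replicate 2 (0.0989), siLINC01534-1 replicate 1 (0.0601) or siLINC01534-1 replicate 2 (0.0931). Pooling the 4 siRNA libraries into 1 group, which turns the gap between the siRNAs into error, left TUBB alone past the threshold for both siRNAs. Over all tested genes, pooling left 100 lower and 261 higher calls, beside 2458 and 2083 in the main fit.

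**Figure D2:**
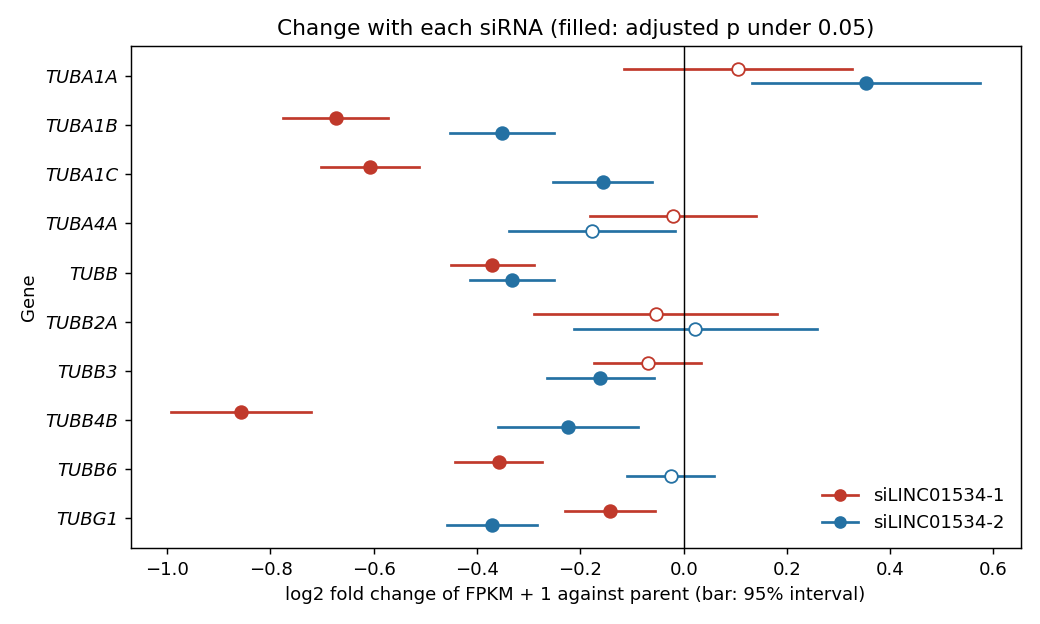
Log2 fold change of FPKM + 1 against parent (horizontal axis) for each tubulin gene under siLINC01534-1 (red) and siLINC01534-2 (blue), with bars for the 95% interval and filled points for an adjusted p under 0.05. TUBB4B lies at -0.86 and -0.22, TUBB at -0.37 and -0.33, and TUBG1 at -0.14 and -0.37.

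The siRNAs were then compared directly. TUBB4B, TUBA1C, TUBB6 and TUBA1B were lower under siLINC01534-1 than under siLINC01534-2, TUBG1 was higher, and 5 did not pass the threshold, beside 22.3% of all tested genes called lower and 19.5% higher. The log2 difference was -0.63 for TUBB4B (adjusted p = 0.00081), -0.45 for TUBA1C (0.000783), -0.33 for TUBB6 (0.00129) and -0.32 for TUBA1B (0.0027). It was 0.23 for TUBG1 (adjusted p = 0.00517). TUBB, which fell with each siRNA, gave a difference of -0.04 with a 95% interval of -0.12 to 0.04 (adjusted p = 0.383). For TUBB4B the 95% interval was -0.77 to -0.50. Both intervals measure only the spread between these libraries, and the difference between these genes was not tested. Without either parent library, TUBA1A and TUBA4A also passed between the siRNAs, with adjusted p-values of 0.0423 to 0.0438 and 0.0308 to 0.0312.

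Isotype use was then expressed as the share of each gene in the summed FPKM of its class. In the alpha class, TUBA1B made up 62.3% ± 0.0444 in parent (SD, n = 2), 59.6% ± 0.250 under siLINC01534-1 and 58.8% ± 0.509 under siLINC01534-2. TUBA1C had 32.8% ± 0.386 in parent and 32.8% ± 0.425 under siLINC01534-1, which overlapped, and 35.4% ± 0.295 under siLINC01534-2. TUBA4A, whose FPKM passed no threshold, had a higher share in the siRNA libraries, at 3.80% ± 0.242 in parent, 5.72% ± 0.186 under siLINC01534-1 and 4.04% ± 0.0592 under siLINC01534-2. TUBA1A had 1.13% ± 0.0998, 1.86% ± 0.0108 and 1.76% ± 0.155.

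In the beta class, the shares of both main isotypes lay on opposite sides of parent under the siRNAs. TUBB made up 61.4% ± 0.0780 in parent (SD, n = 2), 65.6% ± 0.882 under siLINC01534-1 and 58.9% ± 0.533 under siLINC01534-2. TUBB4B had 27.9% ± 0.213 in parent, 21.3% ± 0.916 under siLINC01534-1 and 28.9% ± 0.481 under siLINC01534-2. No pairs of libraries overlapped for either share. The ratio of TUBB4B to TUBB was thus 0.452 and 0.458 in parent, 0.338 and 0.312 under siLINC01534-1 and 0.4999 and 0.482 under siLINC01534-2. TUBB3 had 5.68% ± 0.0166 in parent, 7.47% ± 0.158 under siLINC01534-1 and 6.13% ± 0.129 under siLINC01534-2. TUBB6 had 3.98% ± 0.0520, 4.27% ± 0.0462 and 4.73% ± 0.0118, and TUBB2A had 1.04% ± 0.0666, 1.39% ± 0.170 and 1.28% ± 0.0658. For 6 of the 9 shares the 4 siRNA libraries did not overlap parent, TUBA1B being lower and TUBA1A, TUBA4A, TUBB2A, TUBB3 and TUBB6 higher. By FPKM rather than share, 19.3% of all tested genes lay wholly below parent and 19.0% wholly above. A share also depends on its class sum, so these percentages are not a background for the shares. For each of these 6 shares, an exact permutation test (two-sided, 4 libraries against 2) gave p = 0.133. That is the smallest p that these 15 arrangements allow, so that 0.05 cannot be reached. The exact p was 0.267 for TUBA1C and 0.8 for TUBB and for TUBB4B. Shares of one class sum to 100 and are not independent of each other. A higher share was mostly not a higher level. By mean FPKM of the 4 siRNA libraries, the ratio to parent was 1.18 for TUBA1A. It was 0.932 for TUBA4A, 0.991 for TUBB2A, 0.923 for TUBB3 and 0.88 for TUBB6, beside 0.742 for the alpha sum and 0.775 for the beta sum.

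**Figure D3:**
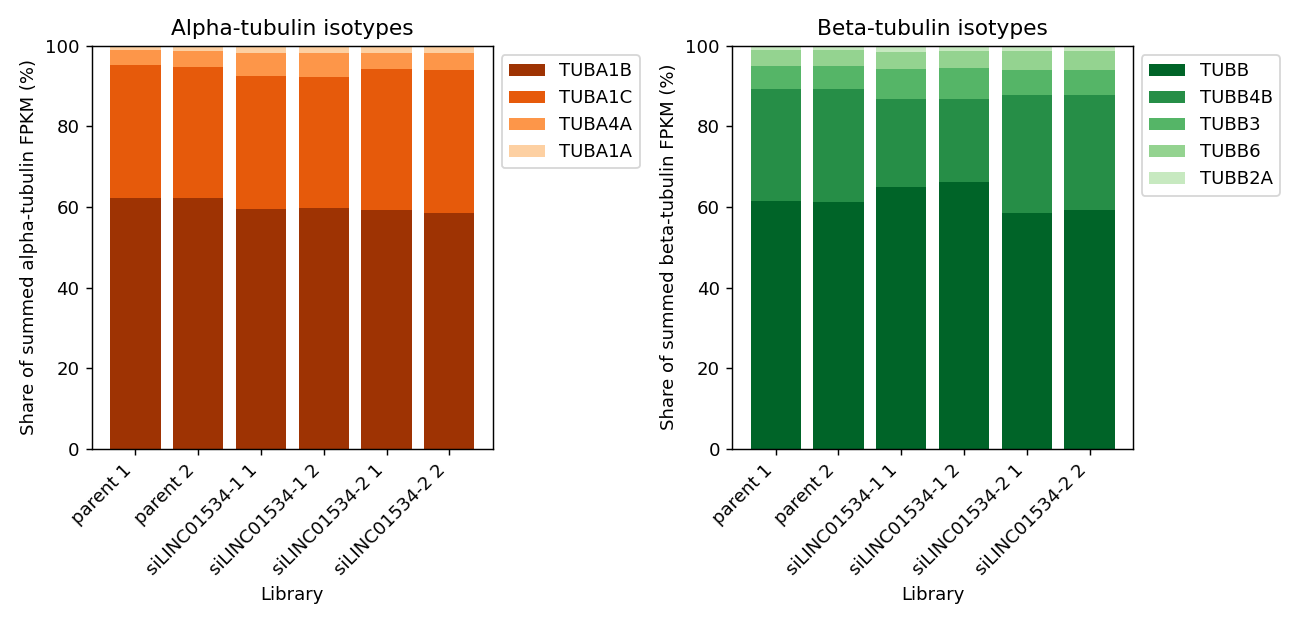
Share (percent) of each isotype in the summed FPKM of the 4 alpha genes (left) and the 5 beta genes (right), with 1 stacked bar per library. With siLINC01534-1 TUBB takes 65.6% and TUBB4B 21.3% of the beta class on average, against 61.4% and 27.9% in parent.

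The class totals were lower in every siRNA library, more so under siLINC01534-1. The 4 alpha genes summed to 1375 and 1431 FPKM in parent, 934 and 903 under siLINC01534-1 and 1184 and 1146 under siLINC01534-2. The 5 beta genes summed to 1849 and 1903 FPKM in parent, 1373 and 1342 under siLINC01534-1 and 1577 and 1526 under siLINC01534-2. Both sums were lowest under siLINC01534-1, and neither overlapped between any groups. The ratio to parent was 0.655 and 0.830 for the alpha sum and 0.724 and 0.827 for the beta sum, in the order siLINC01534-1 and siLINC01534-2. For each sum the exact permutation test (two-sided, 4 libraries against 2) gave p = 0.133, again the smallest possible. The beta sum was 1.34 and 1.33 times the alpha sum in parent, 1.47 and 1.49 times under siLINC01534-1, and 1.33 times in each library under siLINC01534-2. That ratio was higher under siLINC01534-1 in both libraries and overlapped parent under siLINC01534-2.

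Genes of dividing cells were lower in the same libraries. The G2-M list and the lists below were chosen with earlier results of these data known, so their counts are not independent support. All 10 G2-M marker genes fell under siLINC01534-1, 9 fell under siLINC01534-2, and all 10 were lower under siLINC01534-1 than under siLINC01534-2, where 24.5%, 11.8% and 22.3% of all tested genes were called lower. Their summed FPKM was 976 and 979 in parent, 526 and 545 under siLINC01534-1 and 795 and 767 under siLINC01534-2, in the same order as the tubulin sums. CCNA2, which encodes cyclin A2, had log2 fold changes of -1.77 (adjusted p = 2.23e-05) and -0.52 (adjusted p = 0.00176) with the respective siRNAs. For the mean of both siRNAs the log2 fold change was -1.15 for CCNA2, -0.76 for MKI67, a proliferation marker, and -0.71 for PLK1, a mitotic kinase. Whether the share of dividing cells had a part in the tubulin values was not tested.

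**Figure D4:**
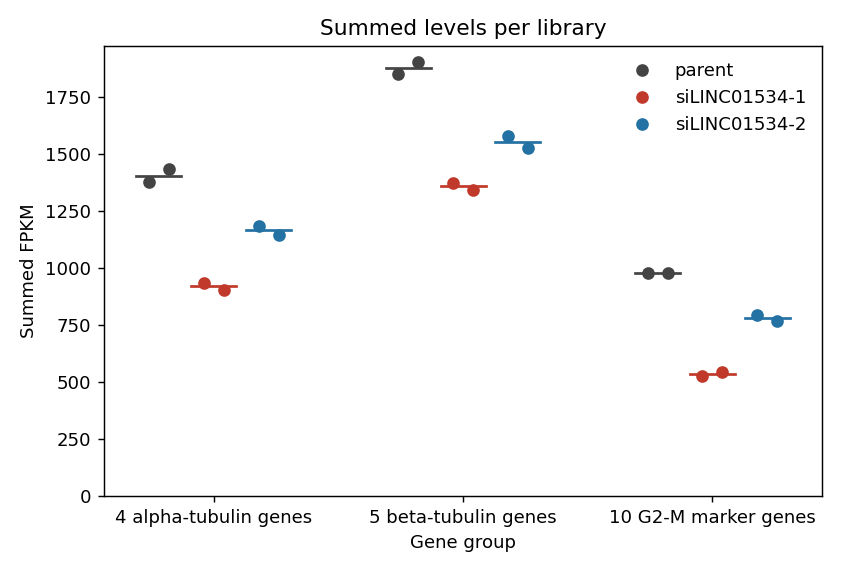
Summed FPKM (linear axis from 0) of the 4 alpha-tubulin genes, the 5 beta-tubulin genes and 10 G2-M marker genes, with 1 point per library and a line at the mean of each pair. In all 3 sums parent is highest and siLINC01534-1 lowest, with the G2-M sum at 976 and 979 in parent and 526 and 545 under siLINC01534-1.

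The other tubulin genes added little mRNA. Of 12 further alpha, beta, gamma, delta and epsilon genes, 8 were under the filter with at most 1.10 FPKM in any library, and TUBA3C and TUBA3E were listed at 0 throughout. Among the 4 tested, TUBE1, the epsilon-tubulin of centriole triplet microtubules, had 9.03 and 9.81 FPKM in parent, 14.9 and 17.1 under siLINC01534-1 and 10.3 and 10.3 under siLINC01534-2. TUBE1 rose under siLINC01534-1 (log2 fold change 0.71, standard error 0.0781, adjusted p = 0.00144), and the siRNAs differed by 0.59 (adjusted p = 0.00314). TUBB4A, a beta isotype of brain, had 12.7 and 12.5 FPKM in parent, 14.1 and 13.7 under siLINC01534-1 and 10.8 and 9.85 under siLINC01534-2. It fell under siLINC01534-2 (-0.26, adjusted p = 0.0301), and its value under siLINC01534-1 was 0.13 (adjusted p = 0.115). For TUBD1, the delta-tubulin gene, and TUBG2, the second gamma gene, no contrast passed the threshold.

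Of 16 genes for tubulin folding and autoregulation, 6 rose and 1 fell under siLINC01534-1, beside 21.8% and 24.5% of all tested genes. Under siLINC01534-2, 1 rose and 2 fell, near the background of 11.1% and 11.8%, and 8 were higher under siLINC01534-1 than under siLINC01534-2, beside 19.5%. TBCD, a cofactor that assembles the tubulin dimer, had 47.4 and 47.6 FPKM in parent, 39.9 and 41.0 under siLINC01534-1 and 34.2 and 30.5 under siLINC01534-2 (log2 fold change of both siRNAs -0.39, adjusted p = 0.0038). PFDN2, a subunit of the prefoldin chaperone that hands nascent tubulin to the folding machinery, rose from 206 and 214 FPKM in parent to 268 and 278 under siLINC01534-1 and 229 and 238 under siLINC01534-2 (0.26, adjusted p = 0.00364). PFDN5, another prefoldin subunit, rose under siLINC01534-1 (0.20, adjusted p = 0.0272), and its value under siLINC01534-2 was 0.12 (adjusted p = 0.166). TTC5, which recognises nascent tubulin in autoregulation and is named here for that role after its values were seen, had 12.8 and 12.6 FPKM in parent, 15.5 and 15.1 under siLINC01534-1 and 13.2 and 12.1 under siLINC01534-2. TTC5 rose under siLINC01534-1 (0.25, adjusted p = 0.0166), and its value under siLINC01534-2 was -0.01 (adjusted p = 0.942). The median log2 fold change of the list for both siRNAs was 0.01, beside -0.01 for all tested genes.

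Of 20 enzymes that modify tubulin after translation, 18 were tested. Under siLINC01534-1, 4 rose and 3 fell, beside 21.8% and 24.5% of all tested genes, and under siLINC01534-2 none rose and 2 fell, beside 11.1% and 11.8%, so that these counts were near or below the background. Between the siRNAs, 9 were higher and 1 lower under siLINC01534-1, beside 19.5% and 22.3%. TTLL12, a divergent member of the tubulin tyrosine ligase-like family, had 70.8 and 74.5 FPKM in parent, 54.5 and 54.6 under siLINC01534-1 and 49.9 and 48.1 under siLINC01534-2 (log2 fold change of both siRNAs -0.48, adjusted p = 0.000694). TTLL7, a beta-tubulin polyglutamylase, rose under siLINC01534-1 (0.63, adjusted p = 0.00743) from 2.38 and 2.39 FPKM in parent, and its value under siLINC01534-2 was 0.38 (adjusted p = 0.0659). ATAT1, the alpha-tubulin acetyltransferase, rose under siLINC01534-1 (0.49, adjusted p = 0.00929) from 6.46 and 7.77 FPKM in parent. Its value under siLINC01534-2 was 0.17 (adjusted p = 0.25), and the siRNAs differed by 0.32 (adjusted p = 0.0405).

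In the gamma-tubulin ring complex, where TUBG1 acts, 2 of 10 other genes fell and 1 rose under siLINC01534-1, beside 24.5% and 21.8% of all tested genes. Under siLINC01534-2 none fell and 1 rose, beside 11.8% and 11.1%, so that these counts were near the background. MZT1, a small subunit that activates the complex, had 11.7 and 10.4 FPKM in parent, 6.52 and 6.60 under siLINC01534-1 and 10.1 and 10.1 under siLINC01534-2. It was thus low in one group only, with a log2 difference between the siRNAs of -0.55 (adjusted p = 0.00255), opposite in sign to that of TUBG1. TUBGCP4 had log2 fold changes of -0.32 under siLINC01534-1 (adjusted p = 0.0054) and -0.02 under siLINC01534-2 (adjusted p = 0.824), and the siRNAs differed by -0.30 (adjusted p = 0.00776). TUBGCP6, another core subunit, rose by 0.16 and 0.21 under the respective siRNAs (adjusted p = 0.0457 and 0.0345).

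Among 20 genes of microtubule dynamics, 10 fell and 3 rose under siLINC01534-1, beside 24.5% and 21.8% of all tested genes, and 7 fell and 2 rose under siLINC01534-2, beside 11.8% and 11.1%. STMN1, which encodes the dimer-binding protein stathmin, had 208 and 205 FPKM in parent, 137 and 149 under siLINC01534-1 and 99.4 and 93.7 under siLINC01534-2, so that siLINC01534-2 gave the lower pair, as for TUBG1. Its log2 fold change was -0.53 and -1.09 (adjusted p = 0.00106 and 0.000526). TPX2, a spindle assembly factor, had 98.2 and 99.8 FPKM in parent, 46.6 and 49.1 under siLINC01534-1 and 68.3 and 66.7 under siLINC01534-2, the order seen for TUBB4B. MAP1B, a microtubule-associated protein best known from neurons, rose by 0.92 for the mean of both siRNAs (adjusted p = 0.000543), from 3.69 and 3.35 FPKM in parent to between 6.19 and 8.82 FPKM in the siRNA libraries.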

How the data were processed

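RNA of HCT116 cells was sequenced in 6 poly(A)-selected, strand-specific libraries as 75-base single-end reads. Per the methods and the submitters' processing notes, the authors mapped reads to hg19 with TopHat2 2.0.13, Bowtie2 2.2.3 and SAMtools 0.1.19, and the deposited values are FPKM from Cuffnorm 2.2.1, of the Cufflinks package. The annotation behind the symbols is not given in the sources used here, and read counts were not used here. The labels name the RNeasy Mini kit and the methods another kit for RNA extraction. FPKM divide by transcript length and library size, so levels of different genes can be set side by side, while reads that fit several tubulin genes are divided by rules not stated.

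From these FPKM, log2(FPKM + 1) was fitted with limma 3.58.1 in R 4.3.3 (lmFit, contrasts.fit, eBayes with a trend) over 6 libraries in 3 groups, for genes whose FPKM averaged at least 1, with Benjamini-Hochberg adjustment and a two-sided threshold of 0.05. The fit was tested on simulated data. The 2-fold rule on mean FPKM is that of the methods. Shares and sums used exact permutation tests over libraries. Ratios and percentages of single genes come from mean FPKM without a pseudocount. The pseudocount of 1 understates changes of low genes. All 10 tubulin genes are named, and of the other lists at most 3 genes with the largest absolute log2 fold change for both siRNAs among those past the threshold, besides genes named for their role. For pattern likeness, the 5 genes most correlated with the most abundant alpha and beta gene were taken, of which 1 is not reported here. The tubulin genes and the lists were chosen with earlier results of these data known. Alternatives were other pseudocounts, filters, scaling, variance models, a replicate block, leaving out short RNA genes and leaving out each library.

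Coordinates, promoters, 3′ UTRs and shared 75-base windows came from GRCh37 with GENCODE annotation lifted to it, using the canonical transcript. Genes that overlap a tubulin gene on the same strand were left out of the shared windows. The depth was estimated as the number of reads that best made low FPKM of genes with 1 transcript whole, with 200 bases taken off the length. At that depth 72.2% to 77.9% of 331 to 396 such values lay within 0.2 of a whole read. Python 3.11.15, pandas 2.3.3, numpy 2.4.6, scipy 1.17.1 and matplotlib 3.10.9 were used.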

Additional observations from a re-analysis of the deposited data

Results flagged for a closer look

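TUBB4B, TUBA1C, TUBB6, TUBA1B and TUBG1 are listed because the effects of the siRNAs on them differed by the direct limma test over all genes. The same test called 22.3% of all tested genes lower and 19.5% higher, so such a difference is not particular to tubulin genes. With siLINC01534-2 subtracted from siLINC01534-1, log2 values differed by -0.63 for TUBB4B, -0.45 for TUBA1C, -0.33 for TUBB6 and -0.32 for TUBA1B, with the lower values under siLINC01534-1, and 0.23 for TUBG1, with the lower values under siLINC01534-2. LINC01534 had too few reads in these libraries to check the labels, and each siRNA had 2 libraries.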

How the results depend on the processing

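Of 570 values of the tubulin log2 fold changes under the alternatives, 510 kept direction and side of the threshold, 41 lost the threshold, 11 gained it and 8 changed sign. Rescaling by median of ratios, pseudocounts of 0.1 and 5 and a minimum mean of 5 FPKM changed no tubulin call. The 7 genes called under siLINC01534-2 became 3 with no filter on low values, 3 with eBayes without a trend and 3 with the replicate block, and 3 to 5 when single libraries were left out. Over all 12203 tested genes, siLINC01534-2 had 1437 lower and 1351 higher calls. These became 1154 and 1175 without a trend, 1005 and 988 with the block, and 1103 and 1032 of 19025 genes with no filter. The 6 called for both siRNAs became 1 with the 4 siRNA libraries as 1 group. There the calls over all tested genes went from 2458 lower and 2083 higher to 100 and 261. Without short RNA genes the 6 became 8, with TUBA1A (adjusted p = 0.0318) and TUBB3 (0.0363) added. TUBA1A then also passed between the siRNAs (0.0377). Same-numbered libraries had deviations correlated at 0.11, 0.03 and -0.05 across genes, so the numbers were not taken to pair them, and the block changed no other tubulin call. Leaving out single libraries, values that missed the threshold changed sign. TUBA1A under siLINC01534-1 ranged from -0.0068 to 0.22 and TUBA4A under siLINC01534-1 from -0.11 to 0.071. TUBB2A ranged from -0.19 to 0.080 under siLINC01534-1, from -0.019 to 0.065 under siLINC01534-2, from -0.083 to 0.051 for both and from -0.21 to 0.058 between the siRNAs. The cause was not tested. With 2 libraries per group, exact tests cannot reach the threshold, and reads shared between near-identical isotypes limit the levels of the TUBA1 genes.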

Other observations

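The genes most like the leading isotypes in their pattern over the 6 libraries were looked up among 6881 genes with a mean of at least 10 FPKM, by Pearson r of log2(FPKM + 1). For TUBA1B these were SAPCD2, MROH6, SRSF2, HIRA and LDHA, with r of 0.99973 for SAPCD2, a regulator of spindle orientation that had 58.9 and 61.6 FPKM in parent, 30.3 and 28.9 under siLINC01534-1 and 43.6 and 40.4 under siLINC01534-2. For TUBB they included THRAP3, SMTN, LASP1 and HEXIM1, with r of 0.998 for THRAP3, which had 87.8 and 92.1 FPKM in parent, 71.1 and 70.8 under siLINC01534-1 and 73.9 and 72.5 under siLINC01534-2. The 6 libraries fall into 3 groups and are the same for both genes of a pair, and 444 genes had r over 0.95 with TUBA1B and 216 with TUBB.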
